A study of Mus musculus with 19 samples.

Results

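Cholesterol is built from acetyl-CoA by a chain of enzymes whose genes are controlled together, and 26 genes of that chain and its control were followed across mouse tissues. They were chosen by gene name from textbook knowledge of the pathway, out of 54532 genes in the deposited tables. The 26 comprise 20 synthesis enzymes, the transcription factor genes Srebf1 and Srebf2, their escort Scap, the retention factors Insig1 and Insig2, and the sterol carrier Stard4. The series was made to find genes that mark the kidney. It holds RNA sequencing of 19 tissues with 1 library per tissue, all from the C57BL/6J strain, from animals labelled male, aged 8 weeks and on a chow diet, with no other treatment or allele named. The tissues were aorta, eye, heart, kidney, liver, parathyroid, stomach, testis, thymus, white adipose tissue (WAT), brain, colon and skeletal muscle in 1 table of FPKM, the reads of a gene per kilobase of its length and per 1000000 reads assigned to genes. Lung, skin, spleen, bone, intestine and brown adipose tissue (BAT) were in a separate table of counts.

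Every nucleated mammalian cell can make cholesterol. Acetyl-CoA is joined into HMG-CoA and reduced to mevalonate, mevalonate is converted to isoprenoid units, the units are condensed to squalene, and squalene is closed into lanosterol and trimmed to cholesterol. SREBP-2, the product of Srebf2, mainly drives the genes of sterol synthesis, and SREBP-1, the product of Srebf1, mainly those of fatty acid synthesis. SCAP carries both to the Golgi for cleavage when membrane sterol is low, and the INSIG proteins hold SCAP in the endoplasmic reticulum when sterol is high. Liver is known for export of cholesterol in lipoproteins and its conversion to bile acids, testis for steroid hormones, and BAT for fatty acid turnover.

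The depth was lowest in colon, with 11135276 assigned reads, and highest in parathyroid, with 17263334. Of 57 tissue markers, 52 were highest in their own tissue. The libraries labelled kidney and eye went against their label of male, with Xist at 90.9 and 97.5 FPKM and 3 reads each over the Y-linked genes. The libraries labelled aorta and parathyroid held both kinds of transcript. Thyroid markers summed to 58810 FPKM in the parathyroid library and 5602 FPKM in the aorta library, and epididymis markers to 16310 FPKM in the WAT library. The thymus library held lung markers at 4217 FPKM, liver markers at 1046 FPKM and brown fat markers at 533 FPKM. The skin library held skeletal muscle markers at 12550 FPKM. Kidney markers summed to 281 FPKM in the liver library, against 5067 FPKM in kidney. The heart library held lung, liver and thymus markers at 419, 314 and 129 FPKM. The part of these admixtures in the results was not tested. In bulk tissue, fewer cells of a type and less RNA per cell cannot be told apart.

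With 1 library per tissue no test of tissues was possible. A member was called higher or lower in a tissue when its FPKM plus 0.1 differed at least 2-fold from the median of the 13 tissues of the first table plus 0.1, and the same call over 26586 genes at 1 FPKM or more gives the background. The 6 tissues of the count table were normalized separately by the authors, so their FPKM was recomputed from counts with the lengths of the first table. Intervals of folds are exact 95% binomial intervals on reads and cover counting error only. Other scalings moved all levels of a library together, by up to 0.91 on the log2 scale in skeletal muscle and 0.90 in liver with median-of-ratios factors, and by -0.45 in thymus. Upper quartile scaling moved liver by 1.07 and skeletal muscle by 1.21. The highest of the 19 tissues was the same for 19 of 26 members with median-of-ratios factors and for 18 of 26 with upper quartile scaling, and liver was then highest for 15 and 16 members in place of 10. The exceptions are given with their genes.

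The starts of the genes were examined first, because SREBPs act at promoters together with the factor NF-Y, which binds the CCAAT box, and Sp1, which binds GC boxes. RefSeq promoters (GRCm38.p6, 250 bases before to 50 after the start) matched 22 of the 26 members. Fdps, Fdft1, Sqle and Stard4 had no entry in that table. The CCAAT box, searched as ATTGG on both strands, was found in 19 of 22 member promoters (86.4%), in 37.9% of all 27025 promoters and in 38.7% of 8780 promoters of other broadly expressed genes. The 3 without it were Acat2, Dhcr7 and Scap. The GC box GGGCGG was found in 18 of 22 (81.8%), in 35.9% of all promoters and in 66.9% of the broadly expressed ones. The core CACNCCAC of the sterol regulatory element was found in Acat2, Hmgcs1 and Insig1 (13.6%) against 6.1% of all promoters. Its longer form TCACNCCAC, which contains the core, was found in Hmgcs1, against 1.2%. The full element as it stands in the LDL receptor promoter, with 1 letter left free, was found in 0 of 22 members and in 0.2% of all promoters. The E-box CACGTG was found in 4 of 22 (18.2%), in 7.2% of all promoters and in 10.5% of the broadly expressed ones. A match describes letters and is no evidence of binding.

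Of the promoters, 6 are shown as 80 bases upstream of the RefSeq start that overlap no exon of GENCODE M21, 5′ to 3′ along the gene. For each gene the stretch with the most matches to the marked patterns was taken, so every stretch had to hold a match. Hmgcs1 holds a sterol element core and a CCAAT box, and Acat2 a core alone. Lss and Nsdhl come from members whose levels followed the other enzymes closely. Sc5d was the member with the largest fold of liver over the next tissue, and Ggps1 did not follow the other enzymes. Capitals mark matches to CACNCCAC, ATTGG or CACGTG on either strand.
Hmgcs1, chr13:119690155-119690234, plus strand: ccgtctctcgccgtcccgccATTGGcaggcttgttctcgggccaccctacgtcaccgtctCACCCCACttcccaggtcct
Acat2, chr17:12960867-12960946, minus strand: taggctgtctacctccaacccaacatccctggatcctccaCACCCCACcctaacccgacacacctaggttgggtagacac
Lss, chr10:76531503-76531582, plus strand: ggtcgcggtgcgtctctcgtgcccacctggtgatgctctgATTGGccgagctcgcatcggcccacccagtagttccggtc
Nsdhl, chrX:72918441-72918520, plus strand: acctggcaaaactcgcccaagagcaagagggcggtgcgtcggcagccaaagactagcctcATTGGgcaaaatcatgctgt
Sc5d, chr9:42264320-42264399, minus strand: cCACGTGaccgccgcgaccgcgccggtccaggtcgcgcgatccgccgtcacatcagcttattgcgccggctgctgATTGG
Ggps1, chr13:14063504-14063583, minus strand: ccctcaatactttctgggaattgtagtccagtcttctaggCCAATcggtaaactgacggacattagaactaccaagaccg
The Sc5d stretch holds the E-box and the CCAAT box at its opposite ends, and the Hmgcs1 stretch holds its CCAAT box upstream of the sterol core. The Ggps1 stretch also holds a CCAAT box. Since the stretches were picked for their matches, this says nothing on how Ggps1 differs from the others.

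The pathway as a whole was transcribed almost everywhere. Of the 26 members, 24 stood at 1 FPKM or more in each of the 13 tissues, as did 35.0% of all genes tested. The exceptions were Fdps and Sqle. The spread between tissues was somewhat smaller than that of genes in general. The log2 ratio of the highest to the lowest tissue had a median of 4.20 over the members, 4.38 over the enzymes and 4.78 over all genes. By the rule of at least 4-fold above the next tissue, 1 of 26 members was enriched in a tissue of the 13, against 32.4% of all genes tested, and 2 of 26 among 19 tissues, against 28.3%. Of 312 pairs of neighbouring tissues in the members' orders over the 13 tissues, 141 did not differ beyond counting error.

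**Figure D1:**
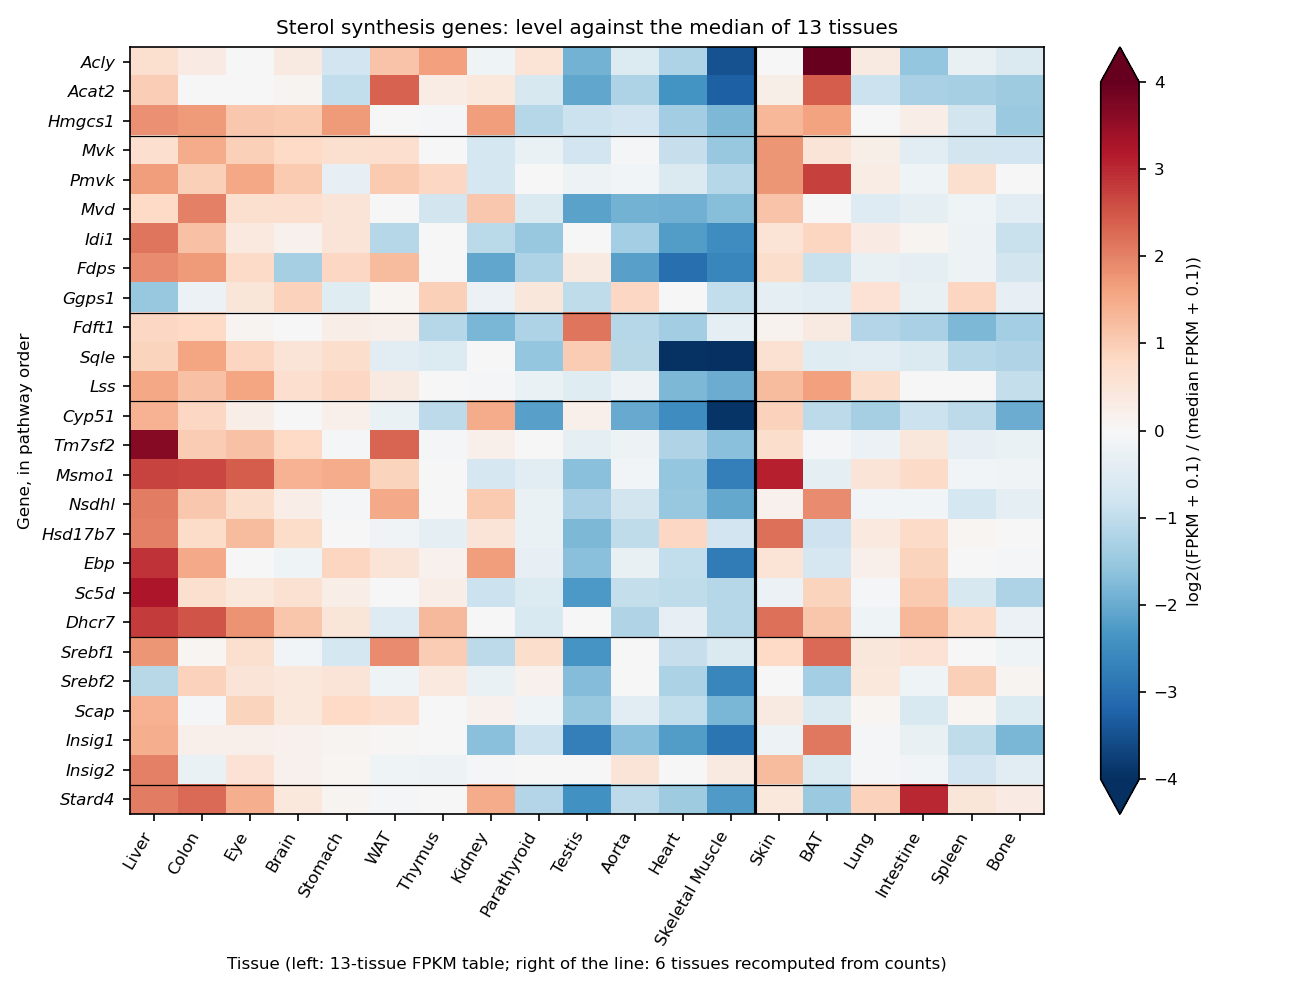
Colour gives the log2 ratio of each member's FPKM plus 0.1 to the median of 13 tissues plus 0.1, with members in pathway order on the vertical axis and 19 tissues on the horizontal axis (right of the line, recomputed from counts; colours end at 4 and -4). The liver column is mostly red with Ggps1 and Srebf2 blue, the skeletal muscle column is mostly blue, and Fdft1 stands out in testis, Acly in BAT and Stard4 in intestine.

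Liver held the highest level of 14 of 26 members among the 13 tissues, and 4.01% of all genes tested were highest there. Among 19 tissues it held 10 of 26, against 2.99% of all genes. Skeletal muscle held the lowest level of 16 of 26, against 16.1% of all genes, and of 7 of 26 with median-of-ratios factors. In liver 18 of 26 members were at least 2-fold above the median tissue (background 9.35%) and 2 were at least 2-fold below it (background 31.1%). The median log2 ratio of the 20 enzymes in liver was 1.76, and that of all genes was -0.36. All 8 enzymes of the lanosterol steps were among the 18, with Hmgcs1, Pmvk, Idi1, Fdps, Lss, Srebf1, Scap, Insig1, Insig2 and Stard4. The number in liver rose to 24 of 26 with either other scaling.

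In skeletal muscle 21 of 26 members were at least 2-fold below the median tissue and 0 above it (background 32.3% and 7.11%). The enzymes' median log2 ratio there was -1.91, and that of all genes was -0.38. The number below was 14 of 26 with median-of-ratios factors and 9 of 26 with upper quartile scaling. Heart, also striated muscle, had 18 of 26 below and 0 above (background 9.64% and 14.1%), and 11 of 26 below with upper quartile scaling. The 8 members that were not called lower in heart were Mvk, Pmvk, Ggps1, Hsd17b7, Dhcr7, Srebf1, Scap and Insig2. Hsd17b7 alone of the enzymes was above the median tissue in heart, at 13.6 FPKM against 4.42 FPKM in skeletal muscle.

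Colon followed liver, with 13 of 26 members at least 2-fold higher and 0 lower (background 18.3% and 12.0%) and an enzyme median of 1.12 on the log2 scale. Skin had 9 higher and 0 lower (background 21.1% and 8.13%), and BAT 9 higher and 3 lower (background 10.5% and 25.3%). Eye had 8 higher and 0 lower against backgrounds of 28.4% and 2.38%, a share near the background, and 3 higher with median-of-ratios factors. WAT had 7 higher and 1 lower (background 23.1% and 5.49%), brain 4 and 1 (23.9% and 11.7%), intestine 3 and 3 (18.1% and 15.9%), thymus 3 and 2 (29.3% and 5.73%), and stomach 2 and 0 (9.85% and 14.9%). Aorta, parathyroid, bone, spleen and lung had 0 of 26 members higher, against backgrounds of 14.4%, 18.7%, 22.3%, 26.5% and 26.5%. The members lower there numbered 11, 7, 7, 5 and 2, against backgrounds of 11.5%, 3.70%, 14.1%, 14.7% and 6.92%. In aorta 7 were lower with median-of-ratios factors and 6 with upper quartile scaling. Stomach reached 10 higher with median-of-ratios factors and 14 with upper quartile scaling. Reads on the 20 enzymes made up 0.817% of all assigned reads in BAT, 0.335% in liver and 0.0257% in skeletal muscle. Acly supplied most of the enzyme reads in BAT. Without Acly the summed FPKM of the enzymes was 873 in BAT and 1806 in liver, so that liver then stood above BAT.

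**Figure D2:**
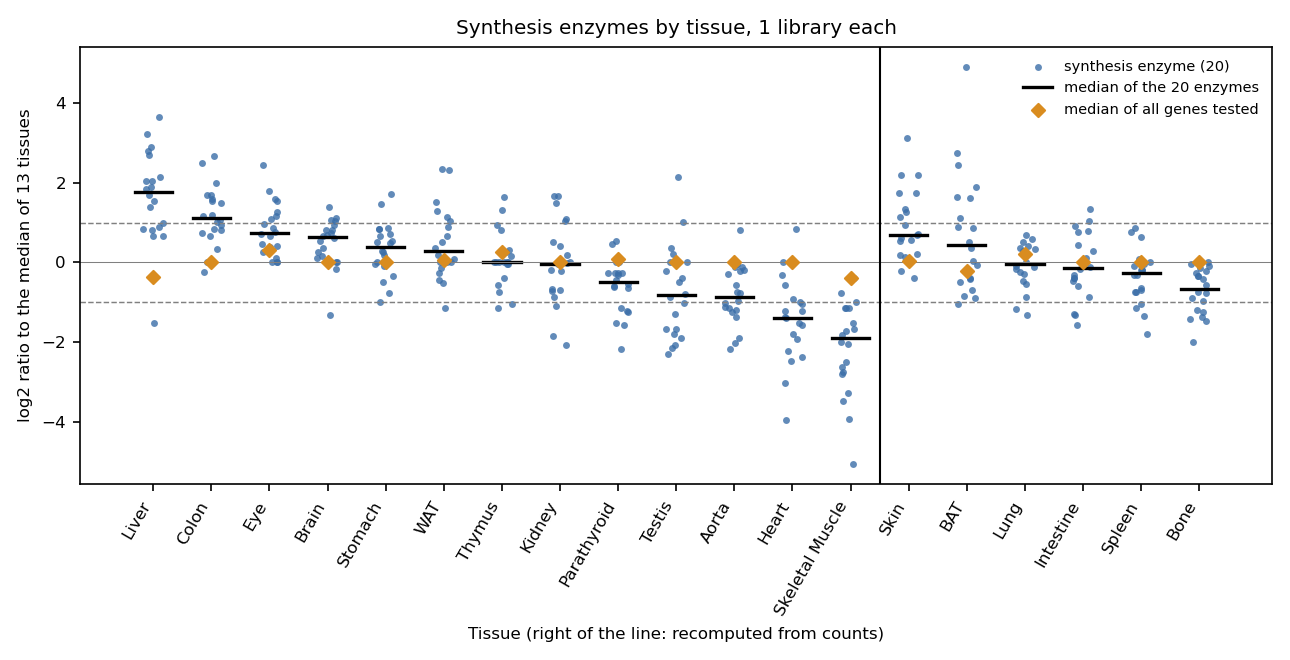
Each point is 1 of the 20 synthesis enzymes in 1 tissue, as the log2 ratio to the median of 13 tissues; black bars are medians of the enzymes, orange diamonds the medians of all genes tested, and dashed lines 2-fold. Enzyme medians run from 1.76 in liver to -1.91 in skeletal muscle, and the diamonds stay between -0.38 and 0.30.

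The entry enzymes Acly and Acat2 were highest in BAT, and Hmgcs1 was not. Acly, ATP citrate lyase, makes cytosolic acetyl-CoA from citrate for sterols and fatty acids alike. Its level was lowest in skeletal muscle at 8.30 FPKM, had a median of 93.2 FPKM over 19 tissues and was highest in BAT at 2798 FPKM. BAT was 9.66-fold above thymus, the next tissue at 290 FPKM (95% interval 9.47 to 9.84, 111201 against 11493 reads). WAT followed at 206 FPKM. The thymus library also held the brown fat markers Ucp1 at 359 FPKM and Cidea at 156 FPKM, whose part in its Acly level was not tested, while in BAT they stood at 2541 and 1538 FPKM.

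Acat2, which condenses acetyl-CoA units in the cytosol, was high in both fat depots, at 160 FPKM in BAT and 152 FPKM in WAT. The next tissue was liver at 58.7 FPKM, and the lowest was skeletal muscle at 2.95 FPKM. WAT exceeded liver 2.59-fold (2.44 to 2.74), a log2 ratio of 1.37 that fell to 0.31 with median-of-ratios factors and to 0.00 with upper quartile scaling. The WAT library carries epididymis transcripts, and their part in this level was not tested. Acat1, the mitochondrial paralog that serves ketone bodies and amino acid breakdown, exceeded Acat2 in 18 of 19 tissues, with WAT the exception. The log2 ratio of Acat2 to Acat1 within a library ran from -5.82 in heart to 0.58 in WAT.

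Hmgcs1 encodes the cytosolic HMG-CoA synthase. Its lowest level was 16.9 FPKM in skeletal muscle, its median 60.2 FPKM over 19 tissues, and its highest 213 FPKM in liver. Liver was followed closely by stomach at 194 FPKM (1.10-fold, 1.06 to 1.13), colon at 193, kidney at 188 and BAT at 181 FPKM. These 5 tissues stood within a narrow range on this scale. The log2 ratio of liver to stomach was 0.13, and was 0.63 with median-of-ratios factors and 0.75 with upper quartile scaling.

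Mevalonate is phosphorylated by Mvk and Pmvk and decarboxylated by Mvd. Mvk was between 4.15 FPKM in skeletal muscle and 40.9 FPKM in skin, with a median of 12.1 FPKM. Skin exceeded colon, at 33.8 FPKM, 1.21-fold (1.08 to 1.36), and with upper quartile scaling liver was highest instead. Pmvk was highest in BAT at 117 FPKM, 1.98-fold above skin at 59.0 FPKM (1.83 to 2.15), and lowest in skeletal muscle at 7.87 FPKM. Liver and eye, at 56.1 and 51.3 FPKM, did not differ beyond counting error for Pmvk. The log2 ratio of 0.13 became 1.38 with median-of-ratios factors and 2.03 with upper quartile scaling. Mvd was highest in colon at 44.8 FPKM, 1.84-fold above skin (1.66 to 2.03), and lowest in testis at 2.44 FPKM. The consecutive enzymes therefore had their highest levels in 3 different tissues.

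Idi1 isomerises the isoprenoid units, and Fdps and Ggps1 build longer chains from them. Idi1 ran from 4.14 FPKM in skeletal muscle through a median of 24.2 FPKM to 104 FPKM in liver, which was 1.93-fold above colon (1.77 to 2.11). Its paralog Idi2 was at 0.347 FPKM in thymus and lower elsewhere, so that Idi1 was the higher of the pair in 19 of 19 tissues. Fdps had a low count, between 0.242 FPKM in heart and 10.03 FPKM in liver, with as few as 4 reads. Near-identical copies of Fdps can share its reads, and its level is uncertain for that reason.

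Ggps1 makes geranylgeranyl diphosphate, which leads away from sterols to protein prenylation and other products. It was the only enzyme lowest in liver among the 19 tissues, at 10.1 FPKM. Its median was 25.2 FPKM, and it was highest in thymus at 57.0 FPKM, with brain at 56.0 and spleen at 53.2 FPKM close behind. Thymus and brain did not differ beyond counting error (1.02-fold, 0.938 to 1.11). The gene overlaps Arid4b on the opposite strand, and whether counting used strand is not given in the sources used here. With either other scaling of the libraries, Ggps1 was no longer 2-fold below the median tissue in liver, and it was highest in aorta.

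Fdft1 encodes squalene synthase, the first step committed to sterols. It was highest in testis at 204 FPKM, 2.48-fold above liver at 82.2 FPKM (2.38 to 2.60, 7037 against 2601 reads). Testis stayed highest with either other scaling, but its log2 ratio to liver of 1.31 fell to 0.93 with median-of-ratios factors and to 0.10 with upper quartile scaling. Colon followed at 80.4 FPKM, the median of 19 tissues was 35.3 FPKM, and kidney was lowest at 12.7 FPKM. In skeletal muscle, where most members were lowest, Fdft1 stood at 35.3 FPKM and was itself the median tissue. The gene overlaps Ctsb on the opposite strand, which was highest in BAT at 578 FPKM.

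Sqle, squalene epoxidase, is a rate-limiting step of the later pathway. It was highest in colon at 58.3 FPKM, 1.48-fold above testis at 39.3 FPKM (1.39 to 1.58), and with either other scaling it was highest in liver. It had a median of 14.1 FPKM, and fell to 1.18 FPKM in heart and 0.484 FPKM in skeletal muscle. Its log2 range of 6.65 over the 13 tissues was the widest of the 26 members, and was 3.14 without skeletal muscle and heart. Lss, which closes the ring to lanosterol, stood at 26.4 FPKM in BAT, 25.6 in eye and 24.6 in liver, and BAT and eye did not differ beyond counting error (1.03-fold, 0.952 to 1.12). With either other scaling Lss was highest in liver. Skeletal muscle and heart were again lowest, at 2.02 and 2.36 FPKM.

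The steps from lanosterol to cholesterol stood highest in liver for 5 of 8 enzymes among 19 tissues. Sc5d, the sterol C5-desaturase, was at 286 FPKM in liver, against 63.0 FPKM in intestine, 47.8 in colon and a lowest value of 6.08 in testis. The liver level was 4.54-fold above intestine (4.35 to 4.75), and 5.99-fold above colon (5.65 to 6.35), the next of the 13 tissues. It was the only member enriched in a tissue of the 13. Tm7sf2, a sterol C14-reductase, was at 157 FPKM in liver, 63.0 in WAT and 3.84 in skeletal muscle, with a median of 12.2 FPKM. Ebp, the sterol isomerase that binds emopamil, was at 225 FPKM in liver, 96.3 in kidney, 87.7 in colon and 4.31 in skeletal muscle.

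Dhcr7 makes cholesterol from 7-dehydrocholesterol, which is also the source of vitamin D in skin. It was at 96.7 FPKM in liver, 78.8 in colon and 63.7 in skin, and lowest in aorta at 5.97 FPKM. Liver exceeded colon 1.23-fold (1.14 to 1.32). Nsdhl, an X-linked dehydrogenase that removes the C4 methyl groups, was at 54.4 FPKM in liver and 48.2 in BAT (1.13-fold, 1.04 to 1.22), with skeletal muscle lowest at 3.07 FPKM.

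The other 3 lanosterol enzymes were highest outside liver by small margins, and with either other scaling all 3 were highest in liver. Msmo1, the C4-methyl oxidase, was at 201 FPKM in skin, 1.34-fold above liver at 149 FPKM (1.29 to 1.40), and liver did not differ from colon at 146 FPKM beyond counting error. Hsd17b7, which reduces the 3-keto intermediate, was at 35.3 FPKM in skin and 31.3 in liver (1.13-fold, 1.03 to 1.23), with testis lowest at 2.12 FPKM. Cyp51, the lanosterol 14-demethylase, was at 187 FPKM in the library labelled kidney and 173 in liver (1.08-fold, 1.04 to 1.13), with a median of 36.3 FPKM. Skin followed for Cyp51 at 126 FPKM and skeletal muscle lowest at 4.26 FPKM. Cyp51 overlaps Akap9 on the opposite strand.

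Markers of the sebaceous gland, a site of lipid synthesis, summed to 96.2 FPKM in skin and 159 FPKM in eye. Elsewhere they reached at most 19.3 FPKM, in intestine. Their part in the skin and eye levels of Msmo1, Hsd17b7 and Mvk was not tested.

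The balance of late and early steps was read within each library, where scaling plays no part but the gene lengths used do. Summed FPKM of the 8 lanosterol enzymes over that of the 12 earlier enzymes was 1.502 in liver and 1.14 in intestine, and below 1 in the remaining 17 tissues. Skin followed at 0.943 and kidney at 0.886, and testis stood at 0.340. BAT was lowest at 0.0636, and reached 0.336 without Acly, which then left testis at 0.365. Without Acly 4 tissues stood above 1, namely liver at 1.85, intestine at 1.31, skin at 1.13 and kidney at 1.10. With medians in place of sums 14 tissues stood above 1, with liver still highest at 3.32 and testis lowest at 0.566.

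Tm7sf2 shares its reaction with Lbr, a lamin B receptor that has the same sterol reductase activity. With the gene lengths used, Tm7sf2 exceeded Lbr in 4 of 19 tissues, which were liver, WAT, brain and BAT. The log2 ratio within a library was 3.94 in liver (15.5-fold, 13.3 to 18.1), 1.32 in WAT and 0.32 in brain, while in BAT it was 0.03 and within counting error. It was lowest in bone at -5.39, followed by thymus at -4.56 and spleen at -4.48. Lbr itself was at 439 FPKM in bone, 289 in thymus and 225 in spleen, and at 10.1 in liver. Tm7sf2 stood near its median in bone, thymus and spleen, at 10.4, 12.1 and 9.97 FPKM, so the low ratios there went with high Lbr. In liver Tm7sf2 was at its highest and Lbr at its lowest of the 19 tissues. Tm7sf2 overlaps Vps51 on the same strand, which reached 9.13 FPKM in spleen.

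Kidney and testis departed from a uniform shift of the pathway. In the library labelled kidney, Hmgcs1, Mvd, Cyp51, Nsdhl, Ebp and Stard4 were at least 2-fold above the median tissue. Idi1, Fdps (on 11 reads), Fdft1, Srebf1 and Insig1 were at least 2-fold below it. The counts of 6 and 5 of 26 stood against backgrounds of 13.6% and 11.4%. With upper quartile scaling 7 were higher and 2 lower, and with a 3-fold threshold 2 and 3. With the reference without kidney, eye, aorta, parathyroid and WAT, 6 were higher and 8 lower. Mvd and Nsdhl among the higher members, and Idi1 and Srebf1 among the lower, were close to the 2-fold threshold. By the 2-fold rule neighbouring steps thus went opposite ways, which for Mvd and Idi1 rested on calls close to the threshold. Mvd was at 23.8 FPKM, second of the 13 tissues, while Idi1 was at 11.1 and Fdft1 at 12.7 FPKM. The same pattern stood in the authors' deposited mean of 3 kidney libraries, with Cyp51 at 214, Hmgcs1 at 191, Ebp at 88.7, Fdft1 at 12.9 and Idi1 at 10.9 FPKM. The single library differed from the mean of the other two by -0.39 (Hsd17b7) to 0.24 (Msmo1) on the log2 scale, with a median absolute difference of 0.10.

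In testis 2 members, Fdft1 and Sqle, were at least 2-fold higher and 14 at least 2-fold lower (background 36.1% and 25.2%). Sqle was close to the threshold at 1.01 on the log2 scale. With median-of-ratios factors the numbers were 3 and 10. With upper quartile scaling, a pseudocount of 1 FPKM, the authors' mean for kidney, the reference without kidney, eye, aorta, parathyroid and WAT, or a 3-fold threshold, 1 member was higher. Cyp51 at 76.1 FPKM, Idi1 at 24.2 FPKM, Fdps at 3.47 FPKM and Dhcr7 at 13.9 FPKM were near the median tissue. Testis held the lowest level of 5 of 26 members, Mvd, Hsd17b7, Sc5d, Srebf1 and Stard4, against 14.7% of all genes. Of the consecutive steps, Sqle was at 1.01, Lss at -0.48 (6.00 FPKM) and Cyp51 at 0.20 against the median tissue on the log2 scale. Lss and Cyp51 were thus called neither higher nor lower. Msmo1 and Sc5d after Cyp51 were lower, at -1.66 (7.24 FPKM) and -2.30 (6.08 FPKM). Markers of steroid-making cells summed to 344 FPKM in the testis library and those of spermatids to 11040 FPKM, and the share of each cell type in these levels was not tested.

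**Figure D3:**
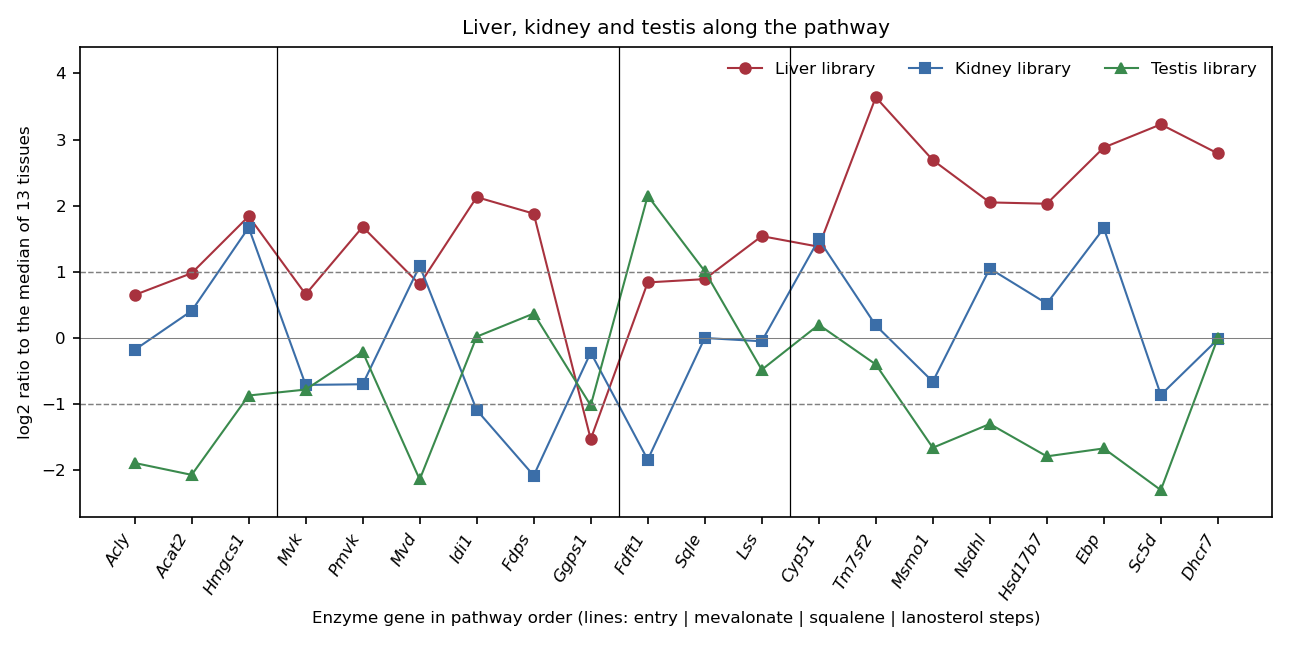
Points give the log2 ratio of each of the 20 enzymes to the median of 13 tissues, in pathway order, for the liver, kidney and testis libraries, with dashed lines at 2-fold. Liver stays high after the squalene steps, testis peaks at Fdft1 (2.15) and falls to -2.30 at Sc5d, and kidney alternates between 1.67 at Hmgcs1 and -2.08 at Fdps. The Fdps value in kidney rests on 11 reads, and Fdft1 there is at -1.84 on 438 reads.

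The regulators differed between tissues in which form was the more abundant. Srebf1 was lowest in testis at 12.0 FPKM, had a median of 65.5 FPKM, and was highest in BAT at 303 FPKM, followed by WAT at 229 and liver at 211 FPKM, an order of WAT and liver that turned with either other scaling. BAT exceeded WAT 1.32-fold (1.27 to 1.37). Srebf2 was lowest in skeletal muscle at 9.78 FPKM, and had a median of 60.5 FPKM. Its highest levels were in spleen at 117 and colon at 116 FPKM, which did not differ beyond counting error (1.01-fold, 0.966 to 1.06). With the other scalings its highest tissue was colon or stomach. In liver, the highest tissue for 8 of 20 synthesis enzymes, Srebf2 stood at only 28.2 FPKM, close to heart at 25.3 FPKM (1.12-fold, 1.02 to 1.23), and in BAT at 23.5 FPKM. With either other scaling, Srebf2 in liver was no longer 2-fold below the median tissue.

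The ratio within a library does not depend on scaling, but which gene is the higher rests on the gene lengths used. Srebf1 exceeded Srebf2 in 12 of 19 tissues, by 12.9-fold in BAT (12.0 to 13.8), 7.47-fold in liver (6.97 to 8.01), 4.31-fold in WAT and 4.23-fold in skeletal muscle. Aorta and lung were within counting error of equality. Srebf2 was the higher in 7 tissues, and the ratio was lowest in stomach at 0.440 (0.408 to 0.474), followed by spleen, colon and kidney. The tables give no isoforms, so SREBP-1a and SREBP-1c could not be separated. Srebf1 overlaps Rai1 on the opposite strand.

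Scap ran from 20.3 FPKM in skeletal muscle through a median of 72.7 FPKM to 189 FPKM in liver, 1.41-fold above eye (1.34 to 1.49). Insig1, itself a target of SREBPs, was highest in BAT at 302 FPKM and next in liver at 192 FPKM (1.57-fold, 1.52 to 1.62). Its lowest levels were 9.14 FPKM in skeletal muscle and 10.4 FPKM in testis. Insig2, which has a liver transcript that insulin lowers, was highest in liver at 236 FPKM and next in skin at 138 FPKM (1.71-fold, 1.61 to 1.82). In the 13 tissues its log2 range of 2.29 was the narrowest of the 26 members, and 9 of 12 neighbouring pairs did not differ beyond counting error.

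Insig1 exceeded Insig2 in 9 of 19 tissues with the gene lengths used, 1727 bases for Insig1 and 783 for Insig2. The lengths of all their exons are 3093 and 3473 bases, and these would raise the ratio of Insig1 to Insig2 in every tissue. Which gene is the higher in a tissue therefore rests on the lengths, while the order of tissues by the ratio does not. The log2 ratio was highest in BAT at 2.93, where Insig1 was 7.62-fold higher (6.97 to 8.34), and lowest in skeletal muscle at -3.01, testis at -2.43, heart at -1.95 and aorta at -1.90. In liver it was -0.30, with both genes high. In these 4 tissues Insig2 stood between 56.4 and 83.5 FPKM, at or above its median of 56.4 FPKM over 19 tissues, and Insig1 at or below 22.3 FPKM.

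**Figure D4:**
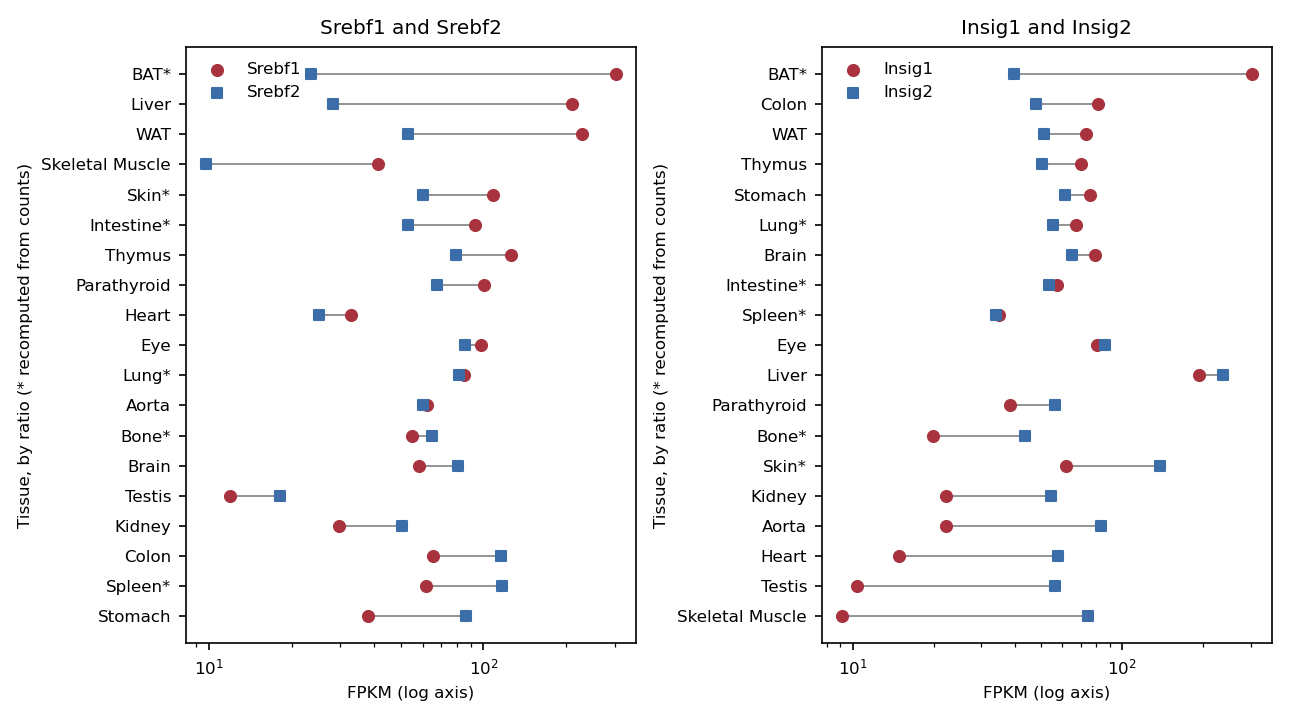
FPKM on a log axis of Srebf1 and Srebf2 (left) and Insig1 and Insig2 (right) in each of 19 libraries, ordered by the ratio within the library. BAT is at the top of both panels, stomach at the bottom of the left one and skeletal muscle at the bottom of the right one.

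Stard4 carries cholesterol between membranes. It was highest in intestine at 149 FPKM, 1.68-fold above colon at 88.6 FPKM (1.59 to 1.77), with liver at 75.4, kidney at 51.2 and eye at 50.2 FPKM. With either other scaling liver stood above colon. Testis and skeletal muscle were lowest, at 3.33 and 3.69 FPKM. In intestine Stard4 stood 3.03 above the median tissue on the log2 scale, while the enzymes' median was -0.14. There Soat2, which esterifies cholesterol, was at 154 FPKM, and Npc1l1, the cholesterol uptake transporter, at 243 FPKM.

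In BAT the members high over other tissues were set beside fatty acid synthesis, of which SREBP-1 is the known driver. The 9 members at least 2-fold higher were Acly, Acat2, Hmgcs1, Pmvk, Lss, Nsdhl, Dhcr7, Srebf1 and Insig1, and those at least 2-fold lower were Cyp51, Srebf2 and Stard4. With median-of-ratios factors 13 were higher and 0 lower. Of 14 genes listed under fatty acid synthesis, 12 were at least 2-fold higher in BAT (background 10.5%). Among the 12 were Gpam, Lpin1 and Pnpla3, which act on glycerolipids, at 1.92, 3.12 and 6.71 on the log2 scale. The other 2 of the 14, the desaturases Fads1 at 4.27 FPKM and Fads2 at 3.86 FPKM, were at least 2-fold lower in BAT (background 25.3%). Of the 14, 7 were enriched in BAT among 19 tissues. Of all genes, 28.3% were enriched in any 1 of the 19 tissues and 3.01% had their highest level in BAT. Fasn, fatty acid synthase, was at 9470 FPKM in BAT and 836 in thymus, the next. Acaca, acetyl-CoA carboxylase, was at 1555 FPKM in BAT, Scd1, stearoyl-CoA desaturase, at 9645 and Thrsp at 2859. The median log2 ratio in BAT was 4.04 over the 14 genes of that list and 0.44 over the 20 sterol enzymes. Ebp at 18.8, Msmo1 at 17.7 and Tm7sf2 at 11.9 FPKM were below their median tissue in BAT, by -0.68, -0.39 and -0.07 on the log2 scale. Median-of-ratios factors moved all levels in BAT by 0.58 and upper quartile scaling by 0.92, more than most of these gaps.

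The profile over tissues was common to most enzymes. Each member's log2(FPKM + 0.1) was set against the mean of the other synthesis enzymes over the 13 tissues, as a description with no test, since all genes of a tissue come from 1 library and share its scaling, and the enzymes were chosen as a pathway. Pearson r had a median of 0.82 over the 20 enzymes, beside 0.10 over 10861 broadly expressed genes outside the members, whose 95th percentile was 0.61. It was over 0.7 for 17 of the 20 enzymes. The median was 0.83 with median-of-ratios factors and 0.84 with upper quartile scaling. The members closest to the mean were Lss at 0.95, Msmo1 at 0.94, Insig1 at 0.93, Nsdhl at 0.90 and Stard4 at 0.89. Over 19 tissues Stard4 stood at 0.64.

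The enzymes at or below 0.7 were Ggps1, Fdft1 and Hsd17b7. Ggps1 stood at -0.05, at 0.34 without liver and at -0.51 with median-of-ratios factors. Hsd17b7 stood at 0.62, at 0.50 without liver and at 0.87 without skeletal muscle and heart. Fdft1 stood at 0.29 and at 0.62 without testis. Among the regulators, Insig2 stood at 0.33 and at -0.24 without liver, so its likeness rested on that library. Srebf2 stood at 0.64, at 0.87 without liver and at 0.24 without skeletal muscle and heart, and Srebf1 at 0.56. Without skeletal muscle and heart the median over the 20 enzymes was 0.76, and Acly fell from 0.71 to 0.39.

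**Figure D5:**
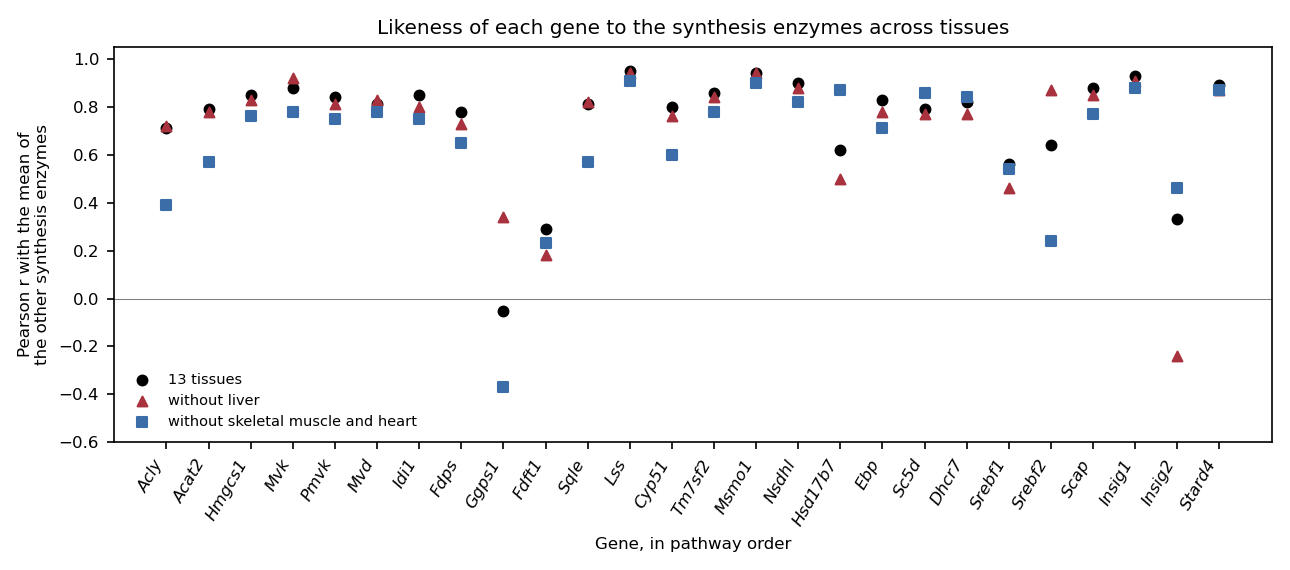
Pearson r of each member's log2(FPKM + 0.1) with the mean of the other synthesis enzymes, over 13 tissues (circles), without liver (triangles) and without skeletal muscle and heart (squares). Most circles lie near the median of 0.82, and Ggps1, Fdft1 and Insig2 lie at or below 0.33.

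Outside the members, the broadly expressed genes closest to the mean of the 20 enzymes were Rmdn3 at 0.913, Mob3b at 0.912, Erg28 at 0.906, Hsd17b12 at 0.881, Ebpl at 0.877, Sdr42e1 at 0.876, Fkbp8 at 0.872 and Adck5 at 0.870. Erg28 encodes a scaffold of the C4-demethylation enzymes, known from yeast, and was at 69.2 FPKM in liver and 1.78 in skeletal muscle. Ebpl is a relative of Ebp, and was at 16.1 FPKM in liver and 0.679 in testis. Hsd17b12 acts in fatty acid elongation, and was at 140.0 FPKM in liver and 6.36 in skeletal muscle. Erg28 and Ebpl had also been listed with the sterol genes. Among the 11 genes listed as further sterol synthesis genes, 6 were at least 2-fold higher in liver, 10 lower in skeletal muscle and 8 lower in testis, against the same backgrounds as above.

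Genes that consume cholesterol were counted by the same rules. Of 9 genes for bile acids, oxysterols and steroids, 8 were enriched in a tissue of the 13, against 32.4% of all genes tested and beside 1 of 26 members. The members' number was 3 with median-of-ratios factors and 5 with upper quartile scaling. Cyp7a1, the rate-limiting enzyme of bile acid synthesis, was at 38.4 FPKM in liver and at most 0.573 FPKM elsewhere. Cyp8b1 and Cyp7b1, further bile acid enzymes, were at 210 and 139 FPKM in liver. Cyp46a1, which hydroxylates cholesterol in neurons, was at 52.8 FPKM in brain, and Cyp11a1, which starts steroid synthesis, at 63.7 FPKM in testis. In brain the enzymes' median was 0.64 on the log2 scale, with 4 of 26 members higher, a share below the background.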

How the data were processed

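The authors deposited FPKM for 13 tissues, a group table whose columns were identical except for kidney, and raw read counts for 6 further tissues. In the group table the kidney column was a mean of 3 libraries, since 1119 genes stood in the single library at exactly 3 times that mean. Per the labels' protocols, RNA was taken up in Trizol, purified on a kit with DNase and checked on a Bioanalyser. The submitters' processing notes name DESeq2 with no version or role. For the aligner, genome build, library kit and strandedness, nothing is stated (not given in the sources used here). Each sample's group is the tissue its title names, and 0 columns were left unmapped.

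Whole reads were recovered from the deposited FPKM (within 0.02 reads; 99.9966% to 100.0016% of each library's total), and the counts the authors deposited for 6 tissues were turned into FPKM with the gene lengths of the first table. That length is about the mean length of a gene's transcripts, so levels between genes rest on it. Reads without molecular identifiers are not independent molecules, and intervals (exact Clopper-Pearson, 95%) cover counting error only. With 1 library per tissue no p-values were computed, and fixed rules of 2-fold, 4-fold and 1 FPKM were used with a pseudocount of 0.1 FPKM.

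The members and all lists were chosen with earlier results of these data known. Named genes are all 26 members; genes of other pathway lists that were enriched in a tissue or form a paralog pair; and the 8 broadly expressed genes (1 FPKM or more in at least 10 of 13 tissues) most like the enzymes. Marker genes, overlapping genes, and paralogs beside a member are named where a result turns on them. The scripts were tested on simulated data. Software was scipy 1.17.1, pandas 2.3.3, numpy 2.4.6 and matplotlib 3.10.9 under Python 3.11.15. Alternatives covered scaling, reference, pseudocount, fold, level, tissues and kidney libraries.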

Additional observations from a re-analysis of the deposited data

How the results depend on the processing

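Counts of members depended on the fold, the scaling of libraries and the reference. With a reference without kidney, eye, aorta, parathyroid and WAT, the number of members higher moved by over 1.5 times in 8 of 19 tissues and the number lower in 6, against 5 and 4 with median-of-ratios factors, 7 and 8 with upper quartile scaling, and 10 and 13 at 3-fold. With that reference, members higher in eye numbered 5, in brain 1 and in intestine 1, and members lower in BAT 7 and in bone 11. At 3-fold, calls summed over the 13 tissues went from 63 to 31 for higher and from 82 to 44 for lower, those higher in colon from 13 to 6, and those lower in heart from 18 to 8. With upper quartile scaling the summed lower calls were 53, those in heart 11 and those in skeletal muscle 9 in place of 21. Members lowest in skeletal muscle numbered 7 in place of 16 with median-of-ratios factors. These factors multiply all genes of a library alike, so they move calls against a reference and leave ratios within a library unchanged. Members enriched in 1 tissue numbered 7 at 2-fold, 3 with median-of-ratios factors, 5 with upper quartile scaling, 2 over 19 tissues, 2 without aorta, parathyroid and WAT, and 0 without liver, in place of 1. The median log2 range was 3.86 with a pseudocount of 1 FPKM in place of 4.20, which follows from adding more to low values. Lanosterol steps exceeded earlier steps in 14 tissues with medians, and in 4 without Acly, in place of 2. The count of members higher in liver (14 to 24), the median likeness (0.76 to 0.84) and the remainder of the 56 values for these results stayed within 1.5 times, or 0.1 for r. Of values for single tissues and genes, 343 stayed within these limits and 186 moved. The alternatives without Acly, without skeletal muscle and heart, and of scaling for the likeness and for the highest of 19 tissues, were chosen after seeing the data. No paired analysis was possible because each tissue had 1 library. Depth limits Fdps (4 reads at the lowest) most, and the other members had at least 23 reads in each library.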

Other observations

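Of the 10 genes of cholesterol uptake and lysosomal release, 2 were enriched in a tissue among 19, as were 2 of the 10 genes of cholesterol efflux, against 28.3% of all genes. These 4 were Npc1l1, Npc2, Abcg5 and Lcat. Npc1l1, the intestinal uptake transporter, was at 243 FPKM in intestine and at most 3.40 FPKM in any other tissue. Abcg5, a sterol exporter, was at 291 FPKM in intestine and 61.5 FPKM in liver. Lcat, which esterifies cholesterol in plasma lipoproteins, was at 220 FPKM in liver and 33.7 FPKM in brain. Npc2, which carries cholesterol out of lysosomes and is also secreted in the epididymis, was at 1879 FPKM in WAT, the library that held epididymis markers. Lung was next at 391 FPKM.

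Rnf139, a ubiquitin ligase of the endoplasmic reticulum that has been tied to sterol control, was at 165 FPKM in testis and between 8.03 and 22.1 FPKM in the other 18 tissues. Acat3, a paralog of Acat2, was at 168 FPKM in liver and at most 17.7 FPKM elsewhere, and near-identical paralogs can share reads.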
